A study of Mus musculus with 157 samples.

Results

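The mRNA decay factors described here are Zfp36 (tristetraprolin, TTP), its relatives Zfp36l1 and Zfp36l2, and Zc3h12a (Regnase-1). They were found by gene symbol in each of 8 expression tables of mouse bone marrow-derived macrophages, and they are 4 of the 24940 genes listed there. The macrophages were grown from bone marrow with the growth factor M-CSF and exposed to particles that they engulf: monosodium urate crystals (MSUc), calcium pyrophosphate dihydrate crystals (CPPD), silica or aluminum hydroxide (alum), each at 250 ug/mL, with PBS as the control. A time course held MSUc and PBS at 10 min, 30 min, 1 h, 2 h and 5 h, and for the other experiments the labels do not give the time of exposure. A second experiment held MSUc, CPPD, silica, alum and PBS, and another held MSUc, CPPD, silica and PBS in cells labelled Tfe3KO and Tfe3WT.

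MSUc and PBS alone were compared in the remaining 5 experiments. They held cells labelled TfebTg (a Tfeb transgene whose promoter is not given in the sources used here) and TfebWT, cells labelled Bhlhe40KO and Bhlhe41KO with 1 shared WT, cells labelled Ampka1KO and Ampka1WT, cells given the DOT1L inhibitor SGC0946 at 1 uM from the start of culture or its vehicle, and cells given metformin (dose not in the labels) or its vehicle. Ampka1 cells came from mice 7 to 8 weeks old and grew in RPMI medium (M-CSF at 5 ng/mL), and C57BL/6, Tfeb transgenic, Bhlhe40-/- and Bhlhe41-/- cells in DMEM (M-CSF at 16 ng/mL), while the medium of the cells labelled Tfe3KO is not stated. Ages of the other mice are not in the labels, and neither is it stated that replicates were separate cultures or animals, so p-values measure the spread between libraries, which may be technical. In all, 115 libraries fell into 45 groups, 20 of 2 libraries and 25 of 3.

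Messenger RNAs of cytokines and of immediate early genes are short-lived because proteins bind elements in their tails and recruit enzymes that destroy them. The Zfp36 proteins bind AU-rich elements through zinc fingers and bring in the CCR4-NOT complex, which removes the poly(A) tail. Tristetraprolin is the inducible member in macrophages: its mRNA is an immediate early transcript with AU-rich elements of its own, and the kinases p38 and MK2 hold the protein inactive while they are active. Zfp36l1 and Zfp36l2 bind similar elements and are best known for roles in development and in lymphocytes. Regnase-1 is an endonuclease that cuts stem-loops in mRNAs of inflammatory genes such as Il6, and the protease MALT1 cleaves it in activated lymphocytes.

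Because the 4 genes moved at different times and in different directions, the promoter letters just before the start site are shown for those with an entry, 3 of 4, from RefSeq (GRCm38.p6). Each stretch holds positions -150 to -1 and is read on the minus strand, on which all these genes lie: Zfp36 chr7:28379229-28379378, Zfp36l1 chr12:80113014-80113163 and Zc3h12a chr4:125127882-125128031. Capitals mark matches to a set of motifs searched on both strands.
Zfp36: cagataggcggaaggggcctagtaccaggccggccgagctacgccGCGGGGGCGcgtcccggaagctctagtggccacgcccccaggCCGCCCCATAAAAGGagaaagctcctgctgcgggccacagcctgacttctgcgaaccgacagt
Zfp36l1: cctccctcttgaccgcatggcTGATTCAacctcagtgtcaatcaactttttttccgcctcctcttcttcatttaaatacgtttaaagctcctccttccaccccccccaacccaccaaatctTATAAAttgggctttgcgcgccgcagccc
Zc3h12a: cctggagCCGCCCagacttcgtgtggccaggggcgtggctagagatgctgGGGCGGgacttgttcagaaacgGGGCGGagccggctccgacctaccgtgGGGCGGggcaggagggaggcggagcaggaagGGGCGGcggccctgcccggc

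The Zfp36 stretch held a CArG box, the letters bound by serum response factor at immediate early genes, at -58 to -49. It also held an EGR site (GCGNGGGCG) at -105 to -97 and a GC box (GGGCGG) at -63 to -58 that shares 1 base with the CArG box. The Zfp36l1 stretch held a TATA box (TATAAA) at -29 to -24 and, at -129 to -123, a match to TGANTCA, a loose form of the AP-1 site. The N there takes any letter, and in this match it was T. The Zc3h12a stretch held 5 GC boxes and no other motif searched. Over 300 bases around the start, 1.63% of 32851 listed promoters held a CArG box, 5.55% an EGR site, 7.81% a match to TGANTCA, 13.6% a TATA box and 35.7% a GC box. The cAMP response element TGACGTCA, the E-box CACGTG and the kappaB site were also searched and had no match in the 3 promoters, against 1.79%, 7.15% and 8.46% of all promoters. A match is a run of letters and not a measured site.

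Libraries held 2.12 to 22.1 M reads on the listed transcripts (median 10.1 M). Summed macrophage markers (7 of 7 listed) ran from 838 to 5380 TPM, T and B cell markers (5 of 5) from 0 to 7.70 TPM, dendritic markers (6 of 6) from 0 to 37.3 TPM, and mast and basophil markers (5 of 5, with Mcpt4 at 0 in every library) from 0 to 19.0 TPM. Neutrophil markers (8 of 8) ran from 1.57 to 1993 TPM and stromal markers (4 of 4) from 0.933 to 1743 TPM, and values by group stand beside several results below. The targeted gene fitted the label for TfebTg (Tfeb 80.5 TPM in TfebTg and 44.1 in TfebWT, PBS) and for Bhlhe40KO (Bhlhe40 6.26 and 67.0 TPM in WT, PBS). It was not lower throughout in the others. Tfe3 had 68.3 TPM in PBS libraries labelled Tfe3KO and 98.4 in Tfe3WT, 37.4 and 54.4 in silica, and 85.7 and 82.1 in MSUc. Bhlhe41 had 49.9 TPM in MSUc libraries labelled Bhlhe41KO and 92.5 in WT, and 48.0 and 52.8 in PBS. Prkaa1, which encodes AMPK alpha 1, had 26.02 TPM in PBS libraries labelled Ampka1KO and 24.5 in Ampka1WT. A value over the whole transcript does not check a deletion of part of it, so these 3 groups are named by their labels.

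All 4 decay factors were well expressed. Values are read as TPM, transcripts scaled for length and library total, so levels can be compared between genes. Zfp36 ran from 67.2 to 981 TPM over the 115 libraries (median 286) and Zfp36l2 from 51.5 to 448 TPM (median 205). Zfp36l1 ran from 7.19 to 185 TPM (median 34.8) and Zc3h12a from 13.3 to 77.0 TPM (median 31.5). By group mean, Zfp36 was the highest of the 4 in 28 of 45 groups and Zfp36l2 in the other 17, while Zc3h12a was the lowest in 29 groups and Zfp36l1 in the other 16. Every library held at least 98 reads of each of the 4 genes.

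In the time course Zfp36 rose within 10 min of MSUc, Zc3h12a and Zfp36l1 followed by 30 min, and Zfp36l1 then turned and fell far below PBS by 5 h. Changes are log2 ratios of MSUc over PBS ± SE from limma on log2(TPM + 1), with p-values adjusted by Benjamini-Hochberg over all genes tested, and a gene is said to rise or fall where that p was under 0.05. Of all genes tested, 0.0567% were called at 10 min, 0.68% at 30 min, 3.28% at 1 h, 33.5% at 2 h and 49.3% at 5 h. Of the 4 decay factors 1 was called at 10 min, 3 at 30 min and 1 h, 4 at 2 h and 3 at 5 h.

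Zfp36 had 475 and 498 TPM in MSUc at 10 min, against 226 and 210 TPM in PBS. At 30 min it had 912 and 981 TPM in MSUc, against 208 and 232 TPM in PBS. The MSUc libraries were above the PBS libraries at both times with no overlap, and the log2 change was 1.16 ± 0.11 at 10 min (adjusted p = 0.001, limma) and 2.10 ± 0.11 at 30 min (adjusted p = 1.5e-06), a 4.29-fold rise. The MSUc libraries then came down to 866 and 858 TPM at 1 h, 614 and 632 TPM at 2 h and 448 and 550 TPM at 5 h, while PBS libraries stayed between 208 and 255 TPM over the whole course. Zfp36 was still higher in MSUc at 5 h, by 1.06 ± 0.11 (adjusted p = 6.8e-06). The response at 30 min exceeded that at 10 min by 0.95 ± 0.16 (interaction, adjusted p = 0.027, with 0.259% of genes called). That call was lost without any of 7 of the 8 libraries (0.86 to 1.00), and the fall of the response after 30 min was not called between neighbouring times (1 h against 30 min, with 0.0891% of genes called, and the later steps); 2 h against 1 h was -0.57 (adjusted p = 0.0556), and it was called with a replicate block (adjusted p = 0.0481) and with limma-voom (-0.59, adjusted p = 0.0365).

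Zc3h12a, the endonuclease, rose later and less. It had 38.6 and 37.2 TPM in MSUc at 10 min, against 35.2 and 32.9 TPM in PBS, a log2 change of 0.15 ± 0.12 that was not called. At 1 h it had 74.0 and 77.0 TPM in MSUc, against 32.6 and 32.1 TPM in PBS. The MSUc libraries were more than 2-fold above PBS at 1 h, and the log2 change of 1.198 ± 0.124 (adjusted p = 6.7e-05, limma) was its largest in the course. The change was 0.70 ± 0.12 at 30 min (adjusted p = 0.018), 0.74 ± 0.12 at 2 h (adjusted p = 0.00065) and 0.38 ± 0.12 at 5 h (adjusted p = 0.021). The 30 min call was lost without any 1 of its 4 libraries (0.63 to 0.78), and the 5 h call without PBS replicate 1 or 2 or MSUc replicate 2, the last leaving 0.16.

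Zfp36l1 was the decay factor that changed direction. It had 158 and 142 TPM in MSUc at 30 min, against 72.8 and 76.5 TPM in PBS, and 176 and 159 TPM at 1 h, against 87.8 and 81.2 TPM in PBS. At 5 h it had 16.9 and 27.7 TPM in MSUc, against 79.2 and 90.1 TPM in PBS. MSUc libraries thus stood above PBS at the early times and below PBS at the late ones, without overlap at any of them. The log2 change was 1.00 ± 0.18 at 30 min (adjusted p = 0.019, limma), 0.98 ± 0.18 at 1 h (adjusted p = 0.0073), -0.53 ± 0.18 at 2 h (adjusted p = 0.039) and -1.92 ± 0.18 at 5 h (adjusted p = 2.7e-06). The turn itself was called: the response at 2 h was lower than at 1 h by 1.50 on the log2 scale (-1.50 ± 0.25, adjusted p = 0.005, with 5.47% of genes called), and that at 5 h lower than at 2 h (-1.39 ± 0.25, adjusted p = 0.013, with 2.45% called). The call at 30 min was lost without any 1 of its libraries (0.92 to 1.07), that at 1 h without PBS replicate 2 or MSUc replicate 1 (0.90 and 0.92), and that at 2 h without PBS replicate 1 or 2 or MSUc replicate 1 (-0.53 to -0.38). The last step was lost without PBS replicate 2 of 5 h or MSUc replicate 2 of 2 h (-1.30 and -1.24).

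Zfp36l2 moved least. At 2 h it had 244 and 214 TPM in MSUc, against 304 and 352 TPM in PBS, without overlap, and the log2 change of -0.52 ± 0.16 (adjusted p = 0.029, limma) was its only call in the course. That call was lost without PBS replicate 2, MSUc replicate 1 or MSUc replicate 2 (-0.61 to -0.41). Under median-ratio scaling the 2 h changes of Zfp36l2 (-0.34, adjusted p = 0.0777) and Zfp36l1 (-0.35, adjusted p = 0.172) were not called. At the other times its change was 0.24 ± 0.16 at 10 min, 0.36 ± 0.16 at 30 min, -0.13 ± 0.16 at 1 h and -0.13 ± 0.16 at 5 h. With Zfp36 up and Zfp36l1 down, the makeup of the family shifted: Zfp36 was 61.6% ± 3.9 of the 3 Zfp36 transcripts in MSUc at 5 h and 37.3% ± 0.16 in PBS (SD, n = 2 each), and Zfp36l1 was 2.73% ± 0.72 in MSUc and 13.3% ± 0.10 in PBS. Macrophage markers summed to 4070 to 4652 TPM in MSUc at 5 h and 5114 to 5323 TPM in PBS, and their part in these results was not tested.

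**Figure D1:**
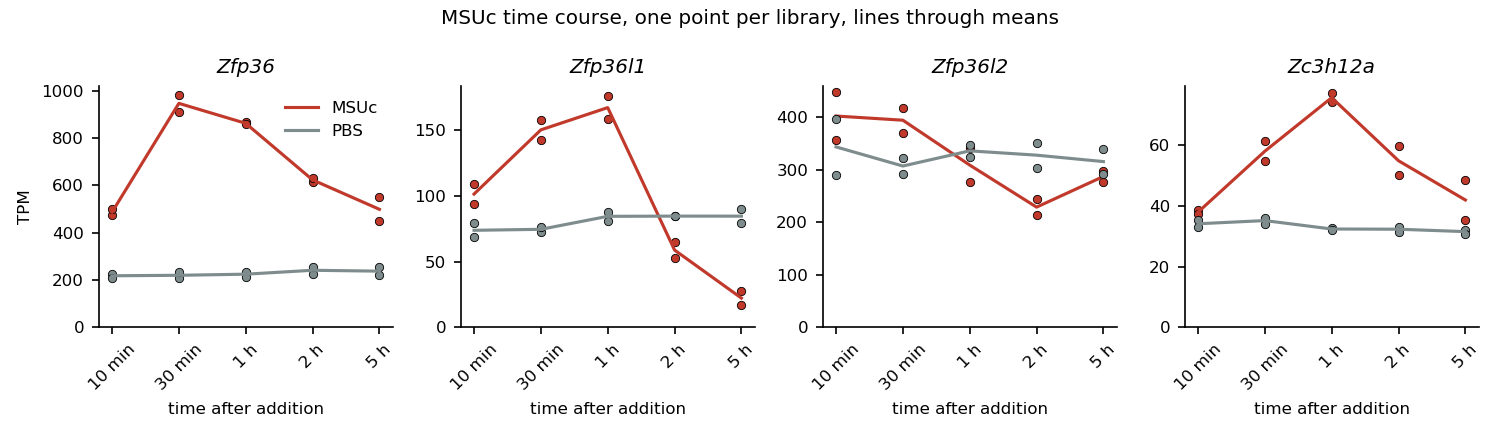
TPM (linear axis from 0) of the 4 decay factors in MSUc and PBS libraries at 5 times, 1 point per library and lines through the means of 2 libraries. Zfp36 in MSUc is highest at 30 min (912 and 981 TPM), Zfp36l1 and Zc3h12a at 1 h, and Zfp36l1 falls to 16.9 and 27.7 TPM in MSUc at 5 h, against 79.2 and 90.1 TPM in PBS.

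In macrophages with no altered gene and no drug, Zfp36 rose with MSUc in 8 of 8 experiments and Zfp36l1 fell in 8 of 8. For both genes MSUc and PBS libraries did not overlap in any of them. How many of all genes had no such overlap was not counted, here or in the other comparisons. The share of all genes called was 49.3% in the time course at 5 h, 63% in the particle experiment, 61.6% in Tfe3WT, 45.5% in TfebWT, 60.5% in the WT of the Bhlhe experiment, 63.7% in Ampka1WT, 55.4% with the vehicle of SGC0946 and 53.9% with the vehicle of metformin, so a call alone was common in these comparisons. In the same order, 16.4%, 18.1%, 20%, 12.6%, 17.1%, 19.7%, 17.8% and 19.6% of genes were called higher, and 32.9%, 44.9%, 41.6%, 32.9%, 43.4%, 43.9%, 37.7% and 34.3% lower. The log2 change of Zfp36 ran from 0.83 ± 0.19 in the particle experiment to 2.28 ± 0.18 in Ampka1WT cells, and that of Zfp36l1 from -3.07 ± 0.19 in the particle experiment to -0.67 ± 0.17 with the vehicle of metformin.

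Zc3h12a rose in 5 of 8 experiments, with changes from 0.08 ± 0.10 in Tfe3WT to 1.03 ± 0.15 in Ampka1WT. Zfp36l2 fell in 4 of 8, with changes from -0.74 ± 0.12 with the vehicle of SGC0946 to -0.07 ± 0.10 in the Bhlhe WT. In Ampka1WT cells Zfp36 had 739, 639 and 570 TPM in MSUc, against 126, 138 and 134 TPM in PBS, and in TfebWT cells it had 160, 199 and 173 TPM in MSUc, against 82.0 and 91.6 TPM in PBS. The levels thus differed between experiments as well as with MSUc, and the tables were scaled separately, so the differences between experiments were not tested. Scaling the libraries by their median ratio raised the median change of all genes with MSUc by 0.13 to 0.28 in these 8 comparisons, and the falls of Zfp36l2 in the particle experiment (-0.22), Tfe3WT (-0.09) and TfebWT (-0.11) were then not called, while Zc3h12a was called in Tfe3WT (0.31) and the particle experiment (0.66) as well, so that it rose in 7 of 8.

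**Figure D2:**
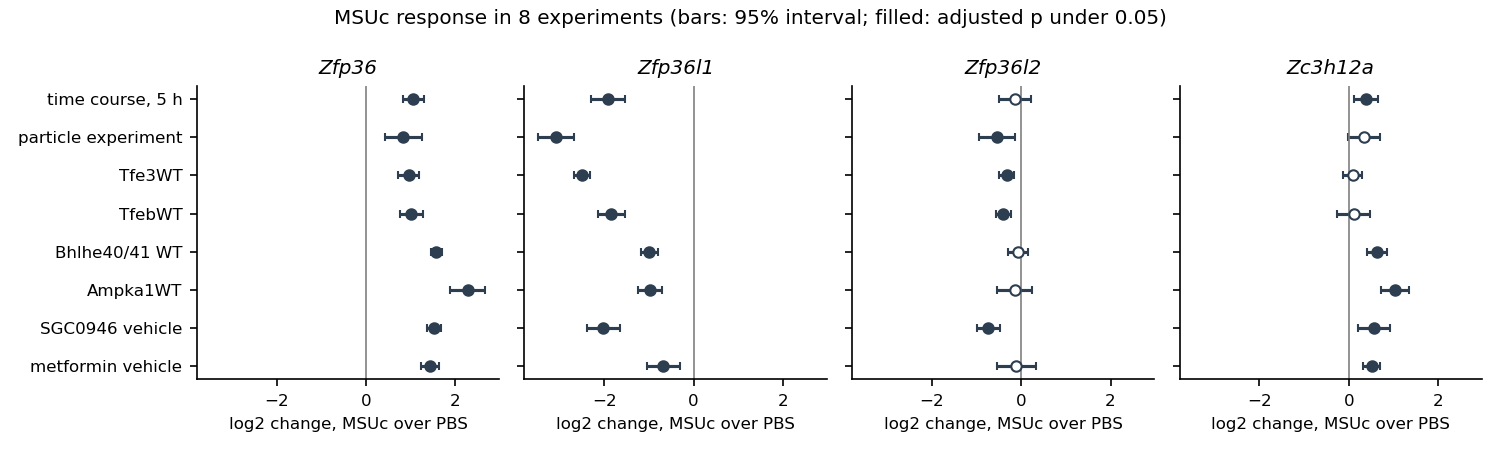
Log2 change of each decay factor, MSUc over PBS, in cells with no altered gene or drug of 8 experiments, with 95% intervals and filled points where the adjusted p was under 0.05. All Zfp36 points lie right of 0 (0.83 to 2.28) and all Zfp36l1 points left of it (-3.07 to -0.67), while Zfp36l2 and Zc3h12a lie nearer to 0.

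The particles shared the fall of Zfp36l1 and differed in Zfp36. In the particle experiment Zfp36l1 had 16.8, 14.9 and 14.3 TPM in MSUc, 16.6, 14.3 and 17.7 TPM in CPPD, 38.8 and 20.5 TPM in silica and 72.6 and 54.2 TPM in alum, against 138, 132 and 138 TPM in PBS. Each particle's libraries lay below the PBS libraries. The log2 changes were -3.07 ± 0.19 with MSUc, -3.00 ± 0.19 with CPPD, -2.23 ± 0.21 with silica and -1.10 ± 0.21 with alum, all called by limma (adjusted p from 7.5e-08 to 0.001), in comparisons with 63%, 52.4%, 68.4% and 46.2% of genes called.

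Zfp36 had 492, 530 and 418 TPM in MSUc, 227, 364 and 298 TPM in CPPD, 203 and 118 TPM in silica and 296 and 288 TPM in alum, against 265, 270 and 267 TPM in PBS. MSUc libraries were above PBS, silica libraries below it, and CPPD libraries on both sides. The log2 change was 0.83 ± 0.19 with MSUc (adjusted p = 0.0023, limma) and -0.78 ± 0.21 with silica (adjusted p = 0.006), and it was not called with CPPD (0.12 ± 0.19) or alum (0.13 ± 0.21). Against MSUc directly, Zfp36 was lower with CPPD (-0.71 ± 0.19, adjusted p = 0.019, 23.6% of genes called), silica (-1.62 ± 0.21, adjusted p = 4.3e-05, 63.7% called) and alum (-0.71 ± 0.21, adjusted p = 0.015, 53.3% called). Without silica replicate 2 the change of Zfp36 with silica was -0.39 (adjusted p = 0.12), and under median-ratio scaling it was also -0.39 (adjusted p = 0.0902), neither of them called, and the CPPD and alum differences from MSUc were lost without MSUc replicate 2 or CPPD replicate 1 (-0.64 and -0.53) and without alum replicate 1 or 2 (-0.73 and -0.69).

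The silica change of Zfp36, lower in the particle experiment as deposited, was positive in the Tfe3WT cells. There Zfp36 had 381, 325 and 402 TPM in silica, against 213, 286 and 295 TPM in PBS, a log2 change of 0.49 ± 0.11 (adjusted p = 0.00074, limma, with 65.8% of genes called). The 2 experiments are separate tables, and the difference between them was not tested. Neutrophil markers summed to 260 to 361 TPM in silica and 49.3 to 116 TPM in PBS of the particle experiment, and to 1458 to 1993 TPM in silica and 305 to 595 TPM in PBS of the Tfe3WT cells, and macrophage markers to 2944 to 3415 TPM in silica and 4884 to 5062 TPM in PBS of the particle experiment. Their part in the silica results was not tested, and in bulk RNA fewer cells of a type and less RNA per cell cannot be told apart.

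Zfp36l2 fell with 3 of the 4 particles. It had 121, 154 and 146 TPM in MSUc, 70.2, 78.1 and 98.5 TPM in CPPD, 94.3 and 51.5 TPM in silica and 190 and 205 TPM in alum, against 195, 202 and 212 TPM in PBS. Its log2 change was -0.54 ± 0.19 with MSUc (adjusted p = 0.024, limma), -1.31 ± 0.19 with CPPD (adjusted p = 0.00012) and -1.53 ± 0.21 with silica (adjusted p = 4.5e-05), and with alum it was -0.04 ± 0.21. The MSUc call was lost without PBS replicate 2 or 3 or MSUc replicate 1 (-0.54 to -0.44). Zfp36l2 was also lower with CPPD than with MSUc (-0.77 ± 0.19, adjusted p = 0.012), a call lost without MSUc replicate 2 or CPPD replicate 1 (-0.70 and -0.66).

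Zc3h12a had 41.8, 43.7 and 38.1 TPM in MSUc, 31.4, 52.5 and 39.7 TPM in CPPD, 26.4 and 18.4 TPM in silica and 29.7 and 30.6 TPM in alum, against 30.52, 31.48 and 35.1 TPM in PBS. Only silica was called against PBS, with a log2 change of -0.53 ± 0.19 (adjusted p = 0.023, limma) that became -0.28 without silica replicate 2 and -0.48 without PBS replicate 3, neither of them called. The MSUc change of 0.34 ± 0.17 was not called as deposited, and under median-ratio scaling it was 0.66 and called (adjusted p = 0.0036). Under the same scaling CPPD was called (0.54, adjusted p = 0.0132) and silica was not (-0.16, adjusted p = 0.446).

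**Figure D3:**
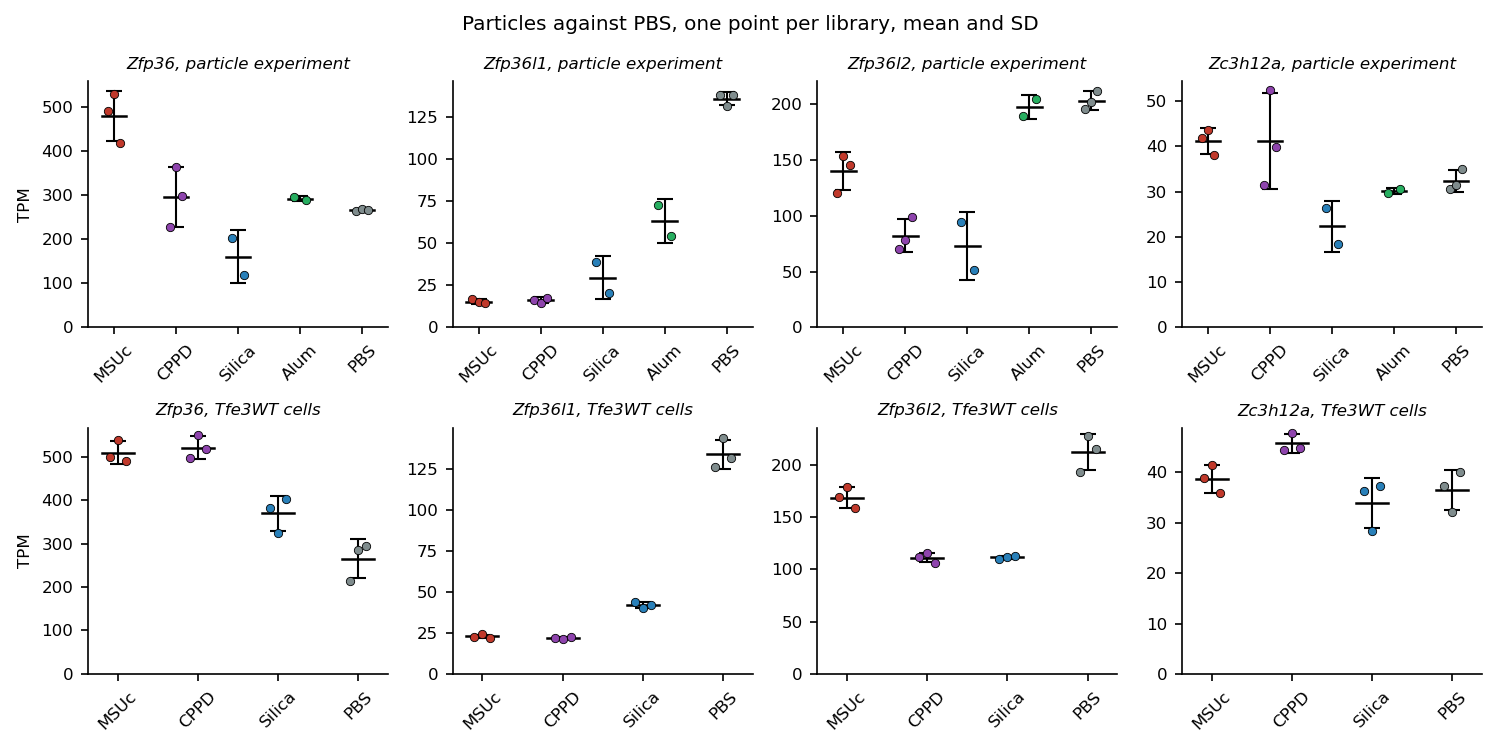
TPM (linear axes from 0) of the 4 decay factors by particle in the particle experiment (top) and in Tfe3WT cells (bottom), 1 point per library with mean and SD. Zfp36l1 is below PBS with every particle, and silica libraries of Zfp36 lie at 203 and 118 TPM in the particle experiment but at 325 to 402 TPM in Tfe3WT cells.

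In libraries labelled Tfe3KO, Zfp36 and Zfp36l1 were somewhat higher than in Tfe3WT under every particle, and the particle responses themselves were not called different. Zfp36 had 735, 808 and 821 TPM in CPPD libraries labelled Tfe3KO, against 496, 549 and 517 TPM in those of Tfe3WT. Zfp36l1 had 34.6, 44.3 and 37.1 TPM in CPPD libraries labelled Tfe3KO, against 21.9, 21.3 and 22.6 TPM in those of Tfe3WT. Both genes were higher in every library labelled Tfe3KO, with log2 differences of 0.60 ± 0.11 (adjusted p = 0.0017, limma) and 0.78 ± 0.09 (adjusted p = 7.6e-06), where 8.1% of genes were called.

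With MSUc (10.7% of genes called) the difference was 0.36 ± 0.11 for Zfp36 (adjusted p = 0.043), 0.53 ± 0.09 for Zfp36l1 (adjusted p = 0.00049) and 0.31 ± 0.08 for Zfp36l2 (adjusted p = 0.011). With silica (12.5% called) it was 0.39 ± 0.11 for Zfp36 (adjusted p = 0.028), 0.56 ± 0.09 for Zfp36l1 (adjusted p = 0.00032) and -0.54 ± 0.10 for Zc3h12a (adjusted p = 0.0011). In PBS (2.37% called) Zfp36l1 and Zfp36l2 were higher, by 0.38 ± 0.09 (adjusted p = 0.026, limma) and 0.34 ± 0.08 (adjusted p = 0.019). The Zfp36 calls were lost without any of 5 of the 6 libraries with MSUc (0.33 to 0.40) and of 4 of the 6 with silica (0.30 to 0.42), and the PBS calls without Tfe3WT replicate 1 or Tfe3KO replicate 2 or 3 for both genes and, for Zfp36l1, also without Tfe3WT replicate 3 (0.34 to 0.39 for Zfp36l1 and 0.28 to 0.34 for Zfp36l2). The MSUc call of Zfp36l2 was lost without Tfe3WT or Tfe3KO replicate 3 (0.27 and 0.23). Within libraries labelled Tfe3KO, Zfp36 rose with MSUc (0.98 ± 0.11, with 62.5% of genes called), CPPD (1.25 ± 0.11, 61.2%) and silica (0.54 ± 0.11, 69.4%), and Zfp36l1 fell with each (-2.35 ± 0.09, -2.15 ± 0.09 and -1.46 ± 0.09). In Tfe3WT with CPPD (60.2% called) Zfp36 rose by 0.99 ± 0.11 and Zfp36l1 changed by -2.55 ± 0.09. None of the 12 interactions of the 4 genes with the 3 particles was called (1.73% of genes called with MSUc, 0.93% with CPPD and 1.52% with silica). Neutrophil markers averaged 359 TPM (highest 466) in MSUc libraries labelled Tfe3KO and 615 TPM (lowest 546) in Tfe3WT, and summed to 980 to 1299 TPM and 1458 to 1993 TPM in silica, and stromal markers to 175 to 452 TPM and 462 to 510 TPM in silica. Their part in these results was not tested. The intervals of the difference in response ran at most from -0.53 to 0.67 (Zc3h12a with silica and Zfp36l1 with CPPD at the ends).

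The Tfeb transgene came with a lower Zfp36 level under MSUc. Zfp36 had 90.8, 119 and 99.8 TPM in MSUc libraries of TfebTg, against 160, 199 and 173 TPM in those of TfebWT. The groups did not overlap, and the log2 difference was -0.78 ± 0.11 (adjusted p = 0.0023, limma), with 3.48% of genes called and no other of the 4 genes among them. In PBS Zfp36 had 76.6, 72.1 and 75.1 TPM in TfebTg and 82.0 and 91.6 TPM in TfebWT, a difference of -0.21 ± 0.12 that was not called (0.717% of genes called), and the difference in response was -0.56 ± 0.16 (adjusted p = 0.43, with 0.1% of genes called). Zfp36 still rose with MSUc in TfebTg, by 0.46 ± 0.11 (adjusted p = 0.0053, with 47.5% of genes called). For TfebWT MSUc replicate 3 the title says MSUc and a treatment field says PBS. Its Zfp36l1 value was 9.8 TPM, against 7.5 and 9.6 TPM in the other TfebWT MSUc libraries and 34.0 and 34.8 TPM in PBS. Its Zfp36 value of 173 TPM also lay between those of the other TfebWT MSUc libraries. With that library as PBS the Zfp36 difference under MSUc was -0.79 (adjusted p = 0.55, limma). Stromal markers summed to 4.45 to 5.01 TPM in MSUc libraries of TfebTg and 8.75 to 14.6 TPM in TfebWT, and their part was not tested.

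Deletion of Bhlhe40 left the decay factors uncalled in PBS (0.0824% of genes called) and in MSUc (0.0165% called), with differences from -0.07 ± 0.10 (Zc3h12a) to 0.21 ± 0.06 (Zfp36) in PBS and from 0.01 ± 0.08 (Zfp36l1) to 0.18 ± 0.10 (Zfp36l2) in MSUc. In libraries labelled Bhlhe41KO, Zfp36 had 433 and 413 TPM in MSUc, against 548 and 507 TPM in WT. The log2 difference was -0.32 ± 0.06 (adjusted p = 0.031, limma, with 1.33% of genes called). In PBS Zfp36l1 had 26.8 and 24.8 TPM in libraries labelled Bhlhe41KO, against 33.8 and 34.6 TPM in WT, a difference of -0.39 ± 0.08 (adjusted p = 0.038, with 2.76% called). The groups did not overlap in either case. With MSUc Zfp36 rose by 1.51 ± 0.06 in Bhlhe40KO (61.5% of genes called) and by 1.23 ± 0.06 in libraries labelled Bhlhe41KO (56.8% called), and no response of the 4 genes was called different from WT (0.00824% and 0.132% of genes called). Neutrophil markers summed to 223 to 226 TPM in MSUc libraries labelled Bhlhe41KO and 53.4 to 61.2 TPM in WT, and to 133 to 149 TPM and 31.4 to 35.1 TPM in PBS, and their part in these results was not tested. The Zfp36 call was lost without 3 of the 4 libraries (WT replicate 1, Bhlhe41KO replicate 1 or 2, -0.35 to -0.26) and the Zfp36l1 call without any 1 of the 4 (-0.45 to -0.34).

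SGC0946, which inhibits the H3K79 methyltransferase DOT1L, came with lower Zfp36. Zfp36 had 161 and 169 TPM in PBS with SGC0946, against 274, 224 and 233 TPM with vehicle, and 550, 581 and 574 TPM in MSUc with SGC0946, against 700, 711 and 690 TPM with vehicle. The groups did not overlap under either treatment. The log2 difference was -0.55 ± 0.08 in PBS (adjusted p = 0.025, limma, with 0.673% of genes called) and -0.30 ± 0.07 in MSUc (adjusted p = 0.015, with 16.6% called). The other 3 genes were not called in either. The difference in the MSUc response was not called for any of the 4 genes (0.0325% of genes called), and for Zfp36 it was 0.25 ± 0.10 (adjusted p = 0.4). With SGC0946 Zfp36 rose with MSUc by 1.78 ± 0.08 (48.9% of genes called). Macrophage markers summed to 3707 to 3779 TPM in MSUc with SGC0946 and 4718 to 5108 TPM with vehicle, and in PBS to 4306 to 4470 TPM and 4610 to 4771 TPM, and their part was not tested. The PBS call was lost without SGC0946 replicate 2 or 3 (-0.52 and -0.58) and in the fit with a replicate block, and the MSUc call without SGC0946 replicate 1 (-0.28).

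In libraries labelled Ampka1KO the MSUc rise of Zfp36 was not called, and Zfp36 was far below its level in Ampka1WT with MSUc. Zfp36 had 147, 125 and 126 TPM in MSUc libraries labelled Ampka1KO, against 739, 639 and 570 TPM in those of Ampka1WT. In PBS it had 142, 99.5 and 75.0 TPM in libraries labelled Ampka1KO, against 126, 138 and 134 TPM in Ampka1WT. MSUc libraries of Ampka1WT stood far above the other 3 groups. With MSUc the level in libraries labelled Ampka1KO was 0.206 of that in Ampka1WT, a log2 difference of -2.28 ± 0.18 (adjusted p = 3.7e-07, limma), where 71.8% of genes were called. The response to MSUc was 0.37 ± 0.18 in libraries labelled Ampka1KO (adjusted p = 0.097, with 58.5% called) and 2.28 ± 0.18 in Ampka1WT. The difference between the responses was -1.90 ± 0.26 (adjusted p = 0.00014), in an interaction that called 50.6% of genes. Without PBS replicate 1 of the libraries labelled Ampka1KO the rise there was 0.61 and was called (adjusted p = 0.0035). The difference of Zfp36 from Ampka1WT in PBS was -0.38 and not called (adjusted p = 0.111, limma). It was called without that library (-0.61, adjusted p = 0.004). With all libraries it was called under median-ratio scaling (-0.59, adjusted p = 0.0297) and with limma-voom (-0.50, adjusted p = 0.0127).

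The response of the other 3 genes differed as well. Zfp36l2 had 79.7, 84.0 and 60.8 TPM in MSUc libraries labelled Ampka1KO, against 299, 225 and 166 TPM in Ampka1WT, and 177, 177 and 155 TPM in PBS libraries labelled Ampka1KO, against 229, 259 and 256 TPM in Ampka1WT. It was lower in each library labelled Ampka1KO, with a log2 difference of -1.58 ± 0.18 in MSUc (adjusted p = 8.1e-06, limma), -0.54 ± 0.18 in PBS (adjusted p = 0.026, with 47.7% of genes called) and -1.03 ± 0.25 in the response (adjusted p = 0.0059). The PBS call was lost without Ampka1WT replicate 2 or 3 or Ampka1KO replicate 3 (-0.52 to -0.48).

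Zfp36l1 had 34.7, 29.7 and 26.97 TPM in MSUc libraries labelled Ampka1KO, against 47.2, 40.2 and 33.7 TPM in Ampka1WT, and in PBS 39.1, 45.4 and 44.2 TPM in libraries labelled Ampka1KO, against 74.3, 83.7 and 82.2 TPM in Ampka1WT. The groups did not overlap in PBS, where the difference was -0.89 ± 0.12 (adjusted p = 0.00011, limma). Its fall with MSUc was -0.48 ± 0.12 in libraries labelled Ampka1KO and -0.98 ± 0.12 in Ampka1WT, a difference in response of 0.50 ± 0.18 (adjusted p = 0.035). Under median-ratio scaling, which moved the median interaction of all genes by -0.26, that difference was 0.19 and was not called, and without any of 6 of the 12 libraries it was 0.38 to 0.50 and not called.

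Zc3h12a had 25.9, 17.7 and 25.1 TPM in MSUc libraries labelled Ampka1KO, against 40.2, 37.9 and 30.1 TPM in Ampka1WT, without overlap. In PBS it had 16.7, 17.5 and 16.0 TPM in libraries labelled Ampka1KO, against 15.1, 18.0 and 18.0 TPM in Ampka1WT. The log2 difference was -0.64 ± 0.15 in MSUc (adjusted p = 0.0019, limma) and -0.02 ± 0.15 in PBS, and the difference in response of -0.62 ± 0.21 (adjusted p = 0.028) was lost without any of 5 of the 12 libraries (-0.62 to -0.54).

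The libraries labelled Ampka1KO also differed in their cell markers. Stromal markers summed to 1300 to 1743 TPM in MSUc libraries labelled Ampka1KO and 34.5 to 120 TPM in Ampka1WT, and in PBS to 482 to 800 TPM and 41 to 77.7 TPM. Macrophage markers summed to 838 to 1007 TPM in MSUc libraries labelled Ampka1KO and 3502 to 3573 TPM in Ampka1WT, and in PBS to 2301 to 2481 TPM and 3057 to 3607 TPM. Neutrophil markers summed to 345 to 405 TPM in MSUc libraries labelled Ampka1KO and 11.4 to 65.7 TPM in Ampka1WT. Their part in the results on the 4 genes was not tested.

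Metformin, a drug that activates AMPK through the energy state of the cell, came with lower levels of the 3 Zfp36 genes in both treatments. Zfp36 had 118, 150 and 139 TPM in MSUc with metformin, against 420, 355 and 363 TPM with vehicle, and 67.2, 70.9 and 67.3 TPM in PBS with metformin, against 134, 147 and 136 TPM with vehicle. The groups did not overlap, and the log2 difference was -1.48 ± 0.09 in MSUc (adjusted p = 8.8e-07, limma, with 43.6% of genes called) and -1.01 ± 0.09 in PBS (adjusted p = 6.6e-06, with 39.5% called).

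Zfp36l1 had 7.19, 10.9 and 11.4 TPM in MSUc with metformin, against 19.1, 20.1 and 26.4 TPM with vehicle, and 13.2, 16.1 and 13.0 TPM in PBS with metformin, against 36.3, 38.1 and 31.3 TPM with vehicle. Zfp36l2 had 80.0, 132 and 144 TPM in MSUc with metformin, against 184, 275 and 217 TPM with vehicle, and 120, 137 and 122 TPM in PBS with metformin, against 216, 275 and 233 TPM with vehicle. Both were lower with metformin without overlap, by -1.09 ± 0.17 and -0.94 ± 0.20 in MSUc and by -1.26 ± 0.17 and -0.93 ± 0.20 in PBS (adjusted p from 0.00011 to 0.003, limma).

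Zc3h12a had 28.1, 29.5 and 30.3 TPM in MSUc with metformin, against 29.6, 31.6 and 34.2 TPM with vehicle, groups that overlapped, with a log2 difference of -0.11 ± 0.09 as deposited and -0.28, which was called (adjusted p = 0.018), under median-ratio scaling. In PBS it had 15.1, 13.3 and 13.4 TPM with metformin, against 22.7, 20.96 and 22.1 TPM with vehicle, a difference of -0.62 ± 0.09 (adjusted p = 0.00017, limma). Its rise with MSUc was therefore wider with metformin, 1.02 ± 0.09 against 0.52 ± 0.09 with vehicle, and the difference in response was 0.51 ± 0.12 (adjusted p = 0.02, with 12.2% of genes called).

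The rise of Zfp36 with MSUc was narrower with metformin, 0.97 ± 0.09 (29% of genes called) against 1.44 ± 0.09 with vehicle, and the difference in response was -0.47 ± 0.13 (adjusted p = 0.039, limma). Those of Zfp36l1 (0.18 ± 0.24) and Zfp36l2 (-0.02 ± 0.28) were not called. The call for Zfp36 was lost without any of 8 of the 12 libraries (-0.51 to -0.39) and that for Zc3h12a without any of 4 of the 12 (0.47 to 0.50). Stromal markers summed to 99.1 to 222 TPM in MSUc with metformin and 301.1 to 401.9 TPM with vehicle, and macrophage markers to 3248 to 3669 TPM with metformin and 2745 to 2922 TPM with vehicle. Their part was not tested.

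**Figure D4:**
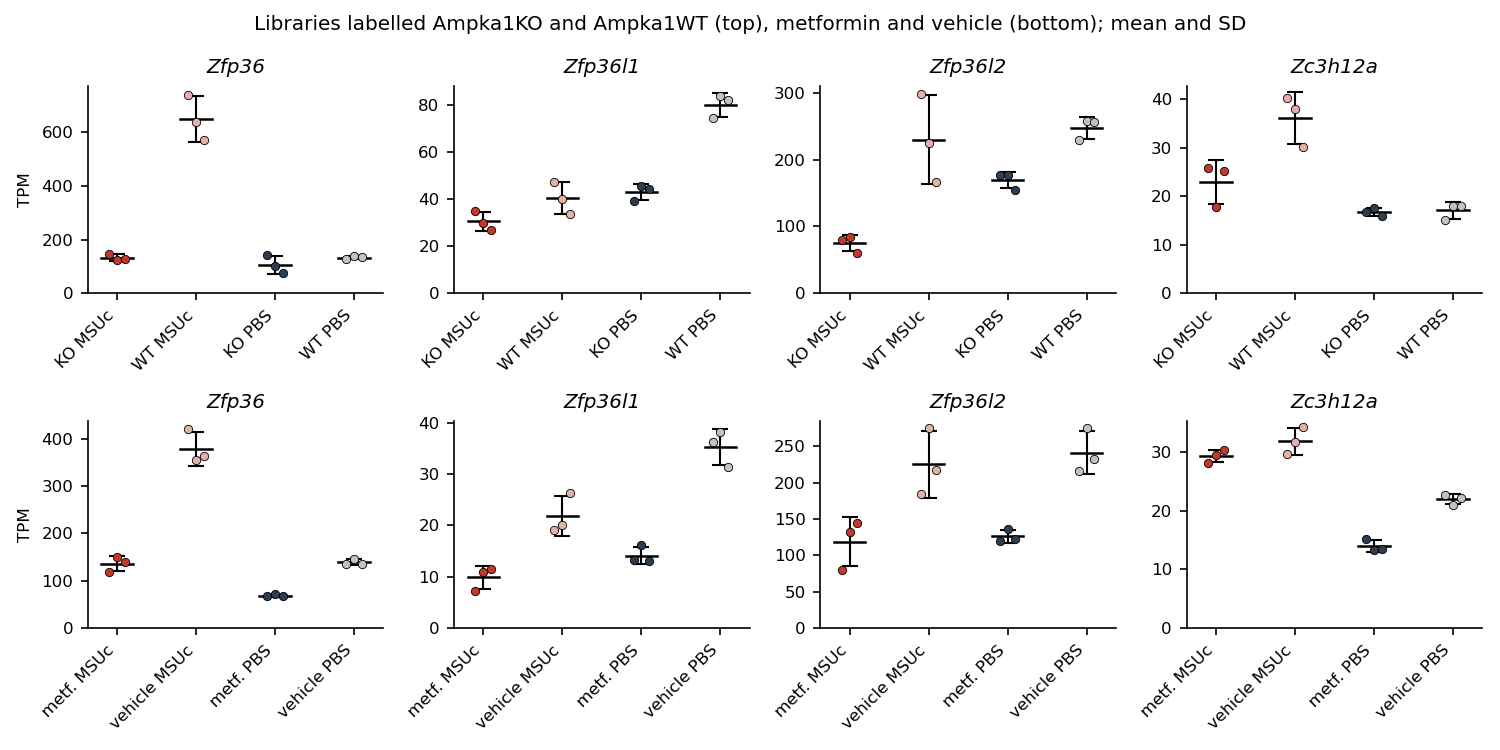
TPM (linear axes from 0) of the 4 decay factors in libraries labelled Ampka1KO and Ampka1WT (top) and with metformin or vehicle (bottom), 1 point per library with mean and SD. Zfp36 in MSUc lies at 125 to 147 TPM in libraries labelled Ampka1KO, against 570 to 739 TPM in Ampka1WT, and at 118 to 150 TPM with metformin, against 355 to 420 TPM with vehicle.

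The enzymes that act downstream of these factors moved in both directions. At 5 h of MSUc, where 16.4% of genes were called higher and 32.9% lower and the median log2 change of all genes was -0.23, 7 of 21 genes of deadenylation rose and 6 fell (median 0.03), 1 of 19 genes of decapping and decay from the cap end rose and 5 fell (median -0.28), and 0 of 16 exosome and SKI genes rose and 6 fell (median -0.17). Patl1, an activator of decapping, had 61.3 ± 1.6 TPM in MSUc and 23.0 ± 1.5 TPM in PBS (log2 change 1.38 ± 0.09), while Xrn1, the exonuclease that follows decapping, had 6.78 ± 0.19 TPM in MSUc and 11.6 ± 0.98 TPM in PBS (-0.69 ± 0.11). Parn and Cnot6l, both deadenylases, fell by 0.92 and 0.80 on the log2 scale, and Btg1, an antiproliferative protein that binds deadenylases, rose by 0.93. Skiv2l, the helicase of the SKI complex, fell by 0.66. Without PBS replicate 2 of 5 h, 3 of the 19 decapping genes and 3 of the 16 exosome genes were called in all, and without MSUc replicate 2 of 5 h 8 of the 21 deadenylation genes.

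Other regulators of unstable mRNAs included larger changes: 7 of 16 tested rose and 3 fell at 5 h (median 0.28). Zc3h12c, a relative of Regnase-1, had 42.3 ± 1.9 TPM in MSUc and 7.20 ± 1.9 TPM in PBS (log2 change 2.42 ± 0.23, adjusted p = 2.8e-06, limma). Arid5a, which protects Il6 mRNA from Regnase-1, had 13.5 ± 0.45 TPM in MSUc and 2.71 ± 0.27 TPM in PBS (1.97 ± 0.12). Among kinases and proteases that act on TTP or Regnase-1, 3 of 15 rose and 4 fell (median 0.15). Malt1, the protease that cleaves Regnase-1, had 94.5 ± 10.8 TPM in MSUc and 12.03 ± 0.81 TPM in PBS (2.87 ± 0.14), and Mapk14, which encodes p38 alpha, had 18.0 ± 0.34 TPM in MSUc and 75.1 ± 8.8 TPM in PBS (-2.00 ± 0.12).

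Transcripts known to be bound or destabilised by TTP rose with MSUc: 14 of 22 tested at 30 min (0.68% of all genes rose), 17 at 1 h (2.33% of all genes) and 18 at 5 h, with 0 that fell at any of these times and a median log2 change of 2.23 at 5 h. Of transcripts known as Regnase-1 targets 8 of 14 rose at 30 min, 9 at 1 h and 9 at 5 h, with 0 that fell and a median of 1.00 at 5 h. These lists hold many inflammatory genes, share several members and were chosen with results of these data known. Plk2 had 771 ± 8.8 TPM in MSUc at 5 h and 64.3 ± 6.1 TPM in PBS, Dusp1, a phosphatase that switches off p38, had 551 ± 122 TPM in MSUc and 76.6 ± 2.5 TPM in PBS, and the chemokine Cxcl2 had 555 ± 47 TPM in MSUc and 11.0 ± 9.5 TPM in PBS. In libraries labelled Ampka1KO the MSUc response of 19 of 22 TTP targets was lower than in Ampka1WT and of 0 higher. The median difference was -2.44, against 0.30 for all genes, of which 15.9% were called lower. With metformin the response of 12 of 22 was lower and of 0 higher (median -1.01, against 0.09 for all genes, of which 4.72% were called lower). Cell markers differed in both comparisons, as given above, and their part in the results on this list was not tested.

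Over the 45 group means, each centred on its experiment, Zfp36 and Zc3h12a moved together (Pearson r = 0.85), Zfp36l1 and Zfp36l2 less so (0.61), and Zfp36 and Zfp36l1 did not (-0.28). These are descriptions over groups that share libraries and scaling within an experiment. In likeness to Zfp36l1 many genes stood before Zfp36l2, which was at place 2821 of 11186. Zfp36l1 was at place 634 for Zfp36l2, and Zc3h12a at place 7 for Zfp36. Of 11186 genes tested in all 8 experiments, those most like Zfp36 were Junb (0.92), Pnrc1 (0.87), Per1 (0.86), Dusp2 (0.86) and Cd83 (0.86). Those most like Zc3h12a were Zfp36 (0.85), Junb (0.85), Tob2 (0.78), Pnrc1 (0.77) and Sertad1 (0.76). For Zfp36l1 they included Mef2c (0.94), Nlrp1c-ps (0.91), Mef2a (0.91) and Gpr155 (0.91), and for Zfp36l2 Cyth1 (0.89), Rassf3 (0.88), Adcy7 (0.88), Daglb (0.86) and Kcnk6 (0.86).

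The deposited lists of chromatin regions that changed with MSUc, read by nearest gene, placed gains near Zc3h12a and losses near Zfp36l1 and, mostly, Zfp36l2. Positions are in mm10, and distances run from the start site of the nearest gene in the authors' annotation, positive in the direction of transcription. The lists for DOT1L, TFE3 and TFEB hold peaks of binding away from start sites, and those for H3K27ac and H3K4me3, marks of active enhancers and promoters, hold regions with the authors' log2 change of MSUc against PBS. A region absent from a list was not compared here.

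Zc3h12a was the nearest gene to 8 of 4446 peaks gained by TFE3, a transcription factor of lysosomal genes. In that list 8 of 2826 genes had as many or more. For TFE3 binding the labels list 1 library with MSUc and 2 with PBS, so the MSUc side has no replicate. Zc3h12a was also nearest to 2 of 5667 peaks gained by TFEB, where 1166 of 3209 genes had as many or more. It was nearest to 3 of 4756 gained by DOT1L, where 506 of 2498 genes did. Between 30.3 and 30.4 kb before its start a TFE3 peak (chr4:125158142-125158357), a TFEB peak (chr4:125158116-125158318) and a DOT1L peak (chr4:125158113-125158352) overlapped, all gained, inside a region of H3K27ac (chr4:125157209-125159209) whose log2 change in the authors' deposited table was 2.13 (adjusted p = 0.0185). A TFE3 and a TFEB peak also overlapped in an intron of Zc3h12a, 5.1 kb after the start (chr4:125122677-125122898 and chr4:125122669-125122912). Zfp36 was the nearest gene to 1 gained TFE3 peak, at 3.8 kb before its start (chr7:28382936-28383190), and to none in the other lists.

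Zfp36l1 was the nearest gene to 4 of 1838 regions that lost H3K27ac, in 2 separate stretches, and to 1 of 868 that lost H3K4me3. In the H3K27ac list 62 of 1112 genes had as many or more, and in the H3K4me3 list all 511 did. At the Zfp36l1 promoter (chr12:80112067-80114067) H3K27ac changed by -1.69 and H3K4me3 by -1.04 in the authors' deposited table. At 49.1 kb after its start (chr12:80062920-80064920) H3K27ac changed by -4.01 in the authors' deposited table, the lowest value of the 1838 in that list, and a DOT1L peak that was reduced (chr12:80063882-80064130) lay inside that region.

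Zfp36l2 was the nearest gene to 7 regions that lost H3K27ac, in 5 separate stretches, and to 7 that lost H3K4me3, in 3 stretches. Of 511 genes in the H3K4me3 list 3 had as many or more. The log2 changes in the authors' deposited table ran from -2.00 to -1.03 for H3K27ac and from -2.16 to -1.08 for H3K4me3, both lowest at 41.9 kb after the start (chr17:84145080-84147080). DOT1L peaks nearest to Zfp36l2 were 1 gained and 3 reduced. Zfp36l2 RNA was called lower with MSUc in 4 of 8 experiments, in which 32.9% to 44.9% of all genes were called lower. Under median-ratio scaling the calls in the particle experiment (-0.22), Tfe3WT (-0.09) and TfebWT (-0.11) were lost. Whether its RNA and these regions changed together was not tested.

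**Figure D5:**
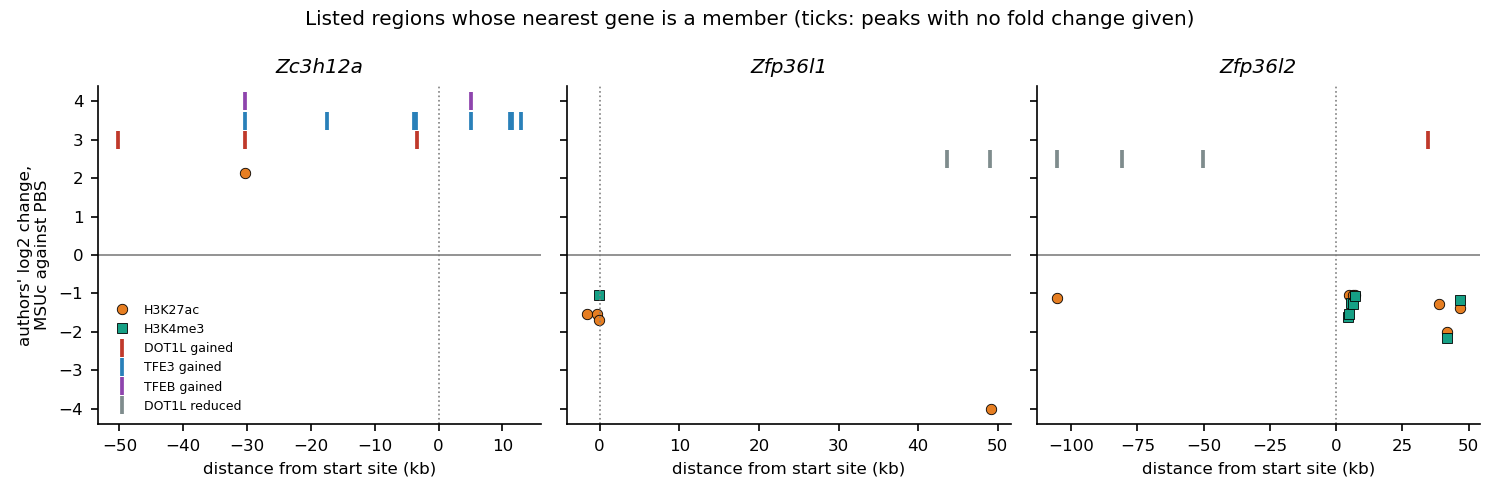
Listed regions whose nearest gene is Zc3h12a, Zfp36l1 or Zfp36l2, by distance from the start site (kb, linear). Points give the log2 change of MSUc against PBS in the authors' deposited table for H3K27ac and H3K4me3, and ticks mark peaks of DOT1L, TFE3 and TFEB that have no fold change (their height has no meaning). The H3K27ac point of Zc3h12a lies at 2.13, and all points of Zfp36l1 and Zfp36l2 lie below -1.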

How the data were processed

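Libraries were stranded (dUTP) and made from poly-A RNA, per the labels' protocols; the submitters' processing notes name STAR, HOMER and the build mm10. The authors deposited length-scaled values without naming their unit, and these are read as TPM. Multiplied by transcript length they are whole multiples of a step fitted per library, taken as reads (at least 99.9931% of values within 0.15 read). Other units scaled by length would give the same, so this does not settle the unit. The values of a library summed to 528079 to 569594. The deposited H3K27ac and H3K4me3 tables give the authors' log2 change and adjusted p-value, per the file headers, from signal in windows that the authors scaled per library by factors the headers do not give; the signal itself was not used.

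The planned test was for TPM: limma 3.58.1 (R 4.3.3, trend) on log2(TPM + 1), all groups of an experiment in 1 fit, a minimum of 1 TPM in a number of libraries equal to the smallest group size, Benjamini-Hochberg adjusted p under 0.05, two-sided, 58 comparisons. A fold on this scale understates the change of low genes. All 4 decay factors passed the filter in all 8 tables. Of 157 samples 115 had a column, and 2 columns with no sample were not used. Those columns were silica 3 of the particle experiment and the first PBS column with SGC0946. The labels list an alum 3 of the particle experiment, which had no column. Groups follow titles; in 12 samples titled Tfe3WT a field says Tfe3KO. The members and gene lists were chosen with earlier results of these data known. Named beside the 4 are the targeted genes, the list members of smallest p at 5 h (up to 4 a list) and the 5 genes of most similar pattern, of which 1 is not reported here. No 2 libraries of a group were copies (95 pairs, lowest chi-square per degree of freedom 2.41). Same-numbered libraries deviated together in 3 of 45 comparisons, CPPD in Tfe3WT and Tfe3KO and silica in Tfe3KO (3 pairs, each correlated over 0.1). A replicate block changed no call of the 4 genes there. Comparisons with 2 pairs were not counted. Among them the correlation was 0.48 with MSUc at 10 min, -0.45 at 30 min and -0.55 at 1 h. It was -0.49 at 2 h and -0.42 at 5 h. For Bhlhe40KO it was 0.14 with MSUc against PBS, 0.12 against WT in PBS and 0.14 against WT in MSUc. In data simulated for 5 h on 12307 genes, 69 of 100 genes changed by 1 on the log2 scale were called. Of genes changed by 2, 92 of 100 were called, and of unchanged genes 9 of 12107. For the difference in response, 5 h minus 2 h, the same counts were 45, 86 and 7. Few genes were changed in the simulation, as many up as down, while a large share of genes was called at 5 h. These rates therefore need not hold for the real comparisons. Alternatives were another pseudocount (0.1), no filter, median-ratio scaling, the compared groups alone, a replicate block, limma-voom on the recovered reads and leaving out each library. Python 3.11.15 and matplotlib 3.10.9 were used for tables and figures.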

Additional observations from a re-analysis of the deposited data

Results flagged for a closer look

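Of 52 tests of whether the response of a decay factor to MSUc, CPPD or silica differed between times, genotypes or drugs, 9 were called, all for MSUc (limma interaction, adjusted p under 0.05). In the time course they were Zfp36 at 30 min against 10 min (0.95 on the log2 scale) and Zfp36l1 at 2 h against 1 h (-1.50) and at 5 h against 2 h (-1.39). In that order, 0.259%, 5.47% and 2.45% of all genes were called. In libraries labelled Ampka1KO against Ampka1WT, where 50.6% of all genes were called, they were Zfp36 (-1.90), Zfp36l1 (0.50), Zfp36l2 (-1.03) and Zc3h12a (-0.62). With metformin against vehicle, where 12.2% of all genes were called, they were Zfp36 (-0.47) and Zc3h12a (0.51), of opposite sign. Only Zfp36l1 at 2 h against 1 h, and Zfp36 and Zfp36l2 in libraries labelled Ampka1KO, stayed called whichever library was left out.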

How the results depend on the processing

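A pseudocount of 0.1 TPM changed no call in the 232 values of the 4 genes. Median-ratio scaling shifted the median of all genes by -0.45 to 0.32 and changed the sign of 1 called value: Zfp36l2 with MSUc in TfebTg was 0.0754 there and not called (adjusted p = 0.423), and -0.20 as deposited, and the cause was not tested. The counts below are of the 4 genes called, where they moved by over 1.5 times, followed by the count as reported. Under median-ratio scaling they were 2 (4) for MSUc at 2 h and 2 (4) for silica in the particle experiment. In fits of the compared groups alone, with fewer samples, they were 0 (1) at 10 min, 1 (3) at 30 min, 2 (4) at 2 h, 0 (1) for 30 min minus 10 min, 0 (1) for 5 h minus 2 h, 4 (2) for alum against MSUc, 0 (2) for Tfe3KO in PBS, 0 (1) for Bhlhe41KO in PBS and in MSUc and 0 (1) for SGC0946 in PBS. With limma-voom they were 2 (1) for 2 h minus 1 h, 2 (1) for SGC0946 in PBS and 1 (0) for the response with SGC0946, and with a replicate block 2 (1) for 2 h minus 1 h and 0 (1) for SGC0946 in PBS, the block otherwise moving only the count for MSUc with SGC0946, to 2 (3), where Zc3h12a was not called (adjusted p = 0.0524). With no filter they were 0 (1) for Bhlhe41KO in PBS and 1 (2) for the response with metformin. With TfebWT MSUc replicate 3 as PBS they were 0 (3) in TfebWT, 1 (3) in TfebTg and 0 (1) for TfebTg against TfebWT in MSUc. The Zfp36 and Zfp36l1 values of that library lay near those of the other TfebWT MSUc libraries, as given above.

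Leaving out 1 library gave counts of 1 to 1 (3) at 30 min, 2 to 3 (4) at 2 h, 0 to 1 (1) for 30 min minus 10 min and for 5 h minus 2 h, 2 to 4 (4) for silica, 0 to 2 (2) for CPPD against MSUc, 1 to 2 (2) for alum against MSUc, 0 to 2 (2) for Tfe3KO in PBS, 1 to 3 (3) for Tfe3KO in MSUc, 0 to 0 (1) for Bhlhe41KO in PBS, 0 to 1 (1) in MSUc, 1 to 3 (2) for Ampka1KO in PBS, 2 to 4 (4) for its response, 0 to 1 (1) for SGC0946 in PBS and in MSUc, and 0 to 2 (2) for the response with metformin. Of 124 calls of the 4 genes, 35 were lost without some 1 library.

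Chosen after the data were seen, a crossed replicate block in the time course kept the count of the 4 genes in 9 of 9 comparisons, and leaving out the 4 Tfe3KO libraries numbered 1 moved 1 of 10, Tfe3KO against Tfe3WT in silica, to 2 (3), where Zfp36 (0.31, adjusted p = 0.097) was no longer called. For the gene lists at 1 h, fits of the compared groups alone called 1 (4) deadenylation gene, 0 (1) decapping genes, 1 (2) other regulator and 0 (3) kinases and proteases, and leaving out 1 library called 0 to 1 (3) kinases and proteases and, without PBS replicate 1, 0 (1) decapping genes. The replicate block and the other alternatives moved the count over all genes by over 1.5 times in 5 (block), 22 of 54 (compared groups alone), 12 (limma-voom), 6 (no filter), 2 (median ratio) and 1 (pseudocount) of 58 comparisons. By Spearman's rho 3, 3, 4 and 4 of the 5 genes most like Zfp36, Zfp36l1, Zfp36l2 and Zc3h12a were shared. Within 100 kb rather than by nearest gene, Zfp36l2 had 5 gained TFE3 peaks (0) and Zfp36l1 7 regions that lost H3K27ac (4). Groups of 2 or 3 libraries limit what could be called.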
